A study of Mus musculus with 12 samples.

Results

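The genes described here belong to the cytosolic DNA sensing pathway and were measured by RNA sequencing of mouse CD4+ T cells. They are the sensors Mb21d1 and Ifi204, the adaptor Tmem173, the kinases Tbk1 and Ikbke, the transcription factor Irf3, and the enzymes Trex1 and Samhd1, which degrade DNA or its building blocks. They were chosen by name for their place in the pathway, with earlier results of these data known, and make up 8 of the 38924 gene IDs counted. Of these, 7 had counts and all 7 passed the filter on low counts, so that they were among the 13811 genes tested, while Trex1 was listed at 0 in every library.

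In this pathway DNA in the cytosol is bound by cGAS, the product of Mb21d1, which makes the cyclic dinucleotide cGAMP. cGAMP binds STING, the product of Tmem173, which recruits the kinase TBK1 and through it activates IRF3 and NF-κB, the factors that turn on type I interferon and antiviral genes. IKKε, the product of Ikbke, is a close relative of TBK1, IFI204 is a member of the PYHIN family of DNA binding proteins, and TREX1 and SAMHD1 limit the pathway by degrading DNA or the nucleotides from which it is made.

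Naive CD4+ T cells were sorted from spleens of C57BL/6 mice aged 8 to 12 weeks, either WT or STINGgt/gt (labelled STING KO), which carry a germline missense mutation of Tmem173 that leaves no functional STING. All cells were expanded with antibodies against CD3 and CD28 for 2 days and rested for 1 day before treatment. The 4 groups, with 3 libraries each, were WT and STINGgt/gt T cells kept for 16 h with the solvent DMSO or with CMA (10-carboxymethyl-9-acridanone), which binds and activates mouse STING. The comparisons ask how activation of STING alters the transcripts of its own pathway, whether this needs STING, and whether the genotypes already differ without the agonist. The paper reports that CMA given overnight led to apoptosis of CD4+ T cells from WT but not STINGgt/gt mice. The part of dying cells in the changes with CMA was not tested.

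Library sizes ran from 27414450 to 43784910 counted reads. In WT, reads outside genes made up 4.86% to 5.47% of entries with DMSO and 6.79% to 7.16% with CMA, and non-unique alignments 29.56% to 30.28% and 27.77% to 27.94%, without overlap, and the part of this in the CMA results was not tested. The STINGgt/gt treatments overlapped in both. Levels are given as CPM, counts scaled by library size and edgeR's TMM factors, and fold changes come from edgeR's quasi-likelihood test with a Benjamini-Hochberg adjusted p of 0.05 over all genes tested as the threshold. All pairs of replicates differed by more than sampling noise (chi-square per degree of freedom 2.59 or more), and those of WT T cells with DMSO differed most, by 9.67 to 29 against at most 6.66 in the other groups. The study calls them biological replicates, but as the labels do not say whether they came from separate mice, the p-values measure only the spread between these libraries. The 9 CD4 T cell markers summed to 3390 to 3410 CPM in WT with CMA, where 5 of them were called lower than with DMSO and 1, Cd4 itself, higher (mean 435 to 498 CPM), and to 3610 to 3770 CPM in the other groups. The 6 B cell markers summed to 632 to 696 CPM in WT with DMSO and 716 to 799 with CMA, but to 289 to 298 and 307 to 318 in STINGgt/gt, and all 6 were higher in WT with DMSO. The 8 myeloid markers summed to 49.9 to 53.9, 60.4 to 63.6, 36.6 to 38.2 and 34.9 to 39.2 CPM in the same order, and all 7 of those tested were higher in WT with DMSO. Most of that sum is Cst3, which went from a mean of 38.6 to 55.7 CPM with CMA in WT, whereas Lyz2, Itgam, Itgax and Fcer1g fell. The 6 CD8 T and NK cell markers summed to 74.7 to 79.2, 65.8 to 69.8, 53.2 to 61.2 and 56.8 to 64 CPM. With DMSO 4 of these 6 were higher in WT than in STINGgt/gt and 1 lower, and with CMA in WT 4 fell and 1 rose, the odd one being Eomes both times. No marker of these lists was at 0 in all libraries.

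The promoters of 4 members that rose with CMA are shown as the upstream sequence of genes that moved in the same direction. They come from RefSeq (GRCm38.p6), run 5′ to 3′ on the minus strand, on which all 4 genes lie, and are cut to the stretch before the RefSeq start that lies in no annotated exon, so that those of Ikbke and Samhd1 do not reach the RefSeq start. The motifs were searched in the whole promoter window, of which these stretches are a part. The positions are chr9:78443238-78443487 for Mb21d1, chr10:121586795-121587044 for Tbk1, chr1:131279607-131279813 for Ikbke and chr2:157135266-157135346 for Samhd1. Capitals mark the only match to a motif searched, a STAT element in Samhd1.
Mb21d1: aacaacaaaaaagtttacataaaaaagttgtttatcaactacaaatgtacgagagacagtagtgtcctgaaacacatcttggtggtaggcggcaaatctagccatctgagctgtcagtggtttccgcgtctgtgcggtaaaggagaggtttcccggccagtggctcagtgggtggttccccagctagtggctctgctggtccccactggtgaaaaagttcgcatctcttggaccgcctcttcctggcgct
Tbk1: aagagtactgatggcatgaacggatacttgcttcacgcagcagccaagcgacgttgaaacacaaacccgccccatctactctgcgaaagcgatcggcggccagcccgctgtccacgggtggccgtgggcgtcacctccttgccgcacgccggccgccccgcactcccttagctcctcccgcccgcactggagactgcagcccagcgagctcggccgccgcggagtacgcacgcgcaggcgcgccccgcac
Ikbke: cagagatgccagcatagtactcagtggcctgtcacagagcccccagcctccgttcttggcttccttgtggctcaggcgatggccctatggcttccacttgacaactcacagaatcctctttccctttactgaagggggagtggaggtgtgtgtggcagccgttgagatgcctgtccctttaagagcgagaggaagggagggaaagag
Samhd1: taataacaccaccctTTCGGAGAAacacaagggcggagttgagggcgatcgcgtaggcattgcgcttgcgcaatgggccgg

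In WT T cells, 6 of the 7 members tested rose with CMA and Irf3 fell. Among all genes tested 70.4% passed in this comparison, 33% higher and 37.4% lower, so that changes in either direction were common. The members' log2 fold changes had a median of 0.71, against -0.04 for all genes tested. For each of the 7 the CMA and DMSO libraries did not overlap, and the share of all genes without overlap was not counted. The increases ran from 1.34-fold for Tbk1 to 39.5-fold for Ifi204. In STINGgt/gt T cells 0 of the 7 passed the test, where 1.32% of all genes did, 0.398% higher and 0.92% lower. There 2 of the 7 had an unadjusted p under 0.05 in edgeR, and DESeq2 and limma-voom also called 0.

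**Figure D1:**
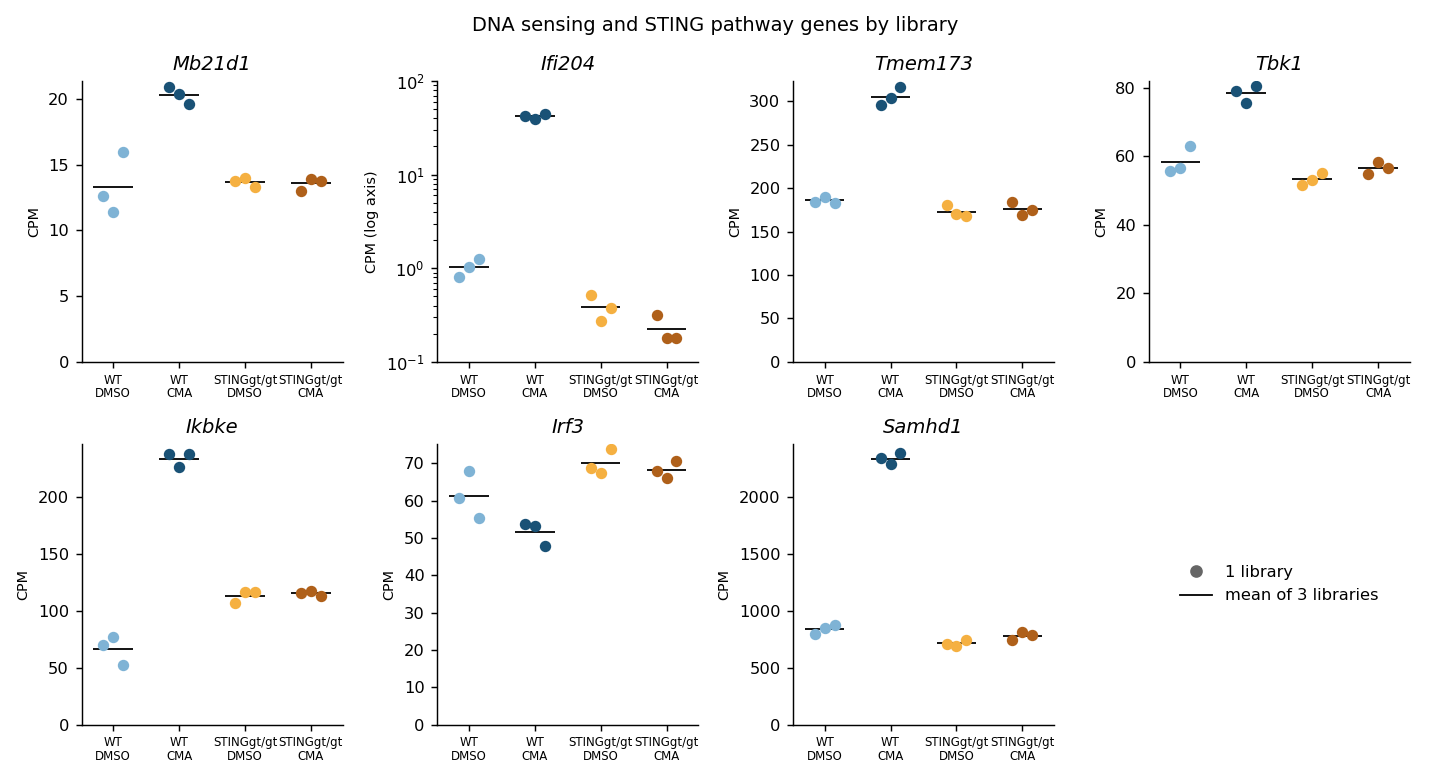
CPM of the 7 members with counts in each of the 12 libraries, 1 panel per gene, with a point per library and a line at the mean of 3. The axis of Ifi204 is logarithmic and the others start at 0. For each gene except Irf3 the 3 WT libraries with CMA lie above all others, and for Irf3 they lie below all others.

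Mb21d1 (ENSMUSG00000032344, chromosome 9, 78430526 to 78443237), which encodes the sensor cGAS, had the lowest level per exon length among the members in WT with CMA and the lowest after Ifi204 in the other 3 groups. Its CPM values in WT were 12.6, 11.4 and 16 under DMSO and rose to 20.9, 20.4 and 19.6 under CMA. The STINGgt/gt libraries gave 13.8, 14 and 13.3 CPM under DMSO and 13, 13.9 and 13.8 under CMA. The WT libraries with CMA were the highest, and the 3 other groups overlapped each other. The increase in WT was 1.51-fold (log2 0.59 ± 0.0912 SE, adjusted p = 2.11e-05, edgeR). Without the WT DMSO library at 16 CPM, the log2 value was 0.77. In STINGgt/gt the log2 value was -0.02 with a 95% interval of -0.21 to 0.18. The pseudogene Gm8093 lies on the opposite strand over 4.9% of the exon bases of Mb21d1. Its own log2 value in WT was -0.29 and did not pass the test (adjusted p = 0.467, edgeR), but as the strand setting of the counting is not given in the sources used here, reads of this stretch cannot be told apart.

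Ifi204 (ENSMUSG00000073489, chromosome 1, 173747293 to 173766943), the PYHIN member that binds DNA and acts upstream of STING, showed the largest change among the members. In WT T cells with DMSO it had 22, 31 and 52 counts, or 0.801, 1.04 and 1.27 CPM. With CMA it had 1533, 1273 and 1409 counts, or 42.8, 39.3 and 44.4 CPM. In STINGgt/gt T cells 20, 10 and 12 counts were found with DMSO (0.515, 0.274 and 0.373 CPM) and 12, 8 and 7 with CMA (0.319, 0.181 and 0.182 CPM). Thus the groups stood apart in the order WT with CMA, WT with DMSO and STINGgt/gt, the last with overlapping treatments. The increase with CMA in WT was 39.5-fold (log2 5.30 ± 0.123 SE, adjusted p = 1.81e-15, edgeR), which ranked 66 from the top among all genes tested. In STINGgt/gt the log2 value was -0.79 with a 95% interval of -1.54 to -0.04 and an adjusted p of 0.359, on at most 20 counts per library. Myeloid cells also express Ifi204. Of the 7 myeloid markers tested 1 rose and 4 fell with CMA in WT, with a median log2 value of -0.74. The sum of all 8 went from 49.9 to 53.9 CPM with DMSO to 60.4 to 63.6 CPM with CMA. Of the 6 B cell markers 4 rose there and 0 fell, with a median log2 value of 0.38. The part of these cell types in the change of Ifi204 was not tested. PYHIN genes resemble each other closely, and the 27.77% to 30.28% of alignments per library that were not unique were counted on no gene, so the level of Ifi204 is uncertain and may be an undercount in all groups. In bulk RNA, fewer cells of a type and less RNA per cell cannot be told apart.

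Tmem173 (ENSMUSG00000024349, chromosome 18, 35733679 to 35740554), which encodes STING itself, had 184, 190 and 183 CPM in WT with DMSO and 296, 304 and 316 with CMA. The STINGgt/gt libraries had 181, 170 and 168 CPM with DMSO and 184, 169 and 175 with CMA. The transcript of the mutated gene was thus present with DMSO at a mean of 173 CPM against 186 in WT, without overlap, and the mutation lies in the coding sequence, so the level of Tmem173 is no check of the genotype labels. With CMA, Tmem173 rose 1.64-fold in WT (log2 0.71 ± 0.0458 SE, adjusted p = 5.87e-10, edgeR). In STINGgt/gt the log2 value was 0.02, with a 95% interval of -0.08 to 0.12.

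Both kinases of the pathway rose in WT, and the estimate for Ikbke was the larger. Tbk1 (ENSMUSG00000020115, chromosome 10, 121546455 to 121586787), the kinase that STING recruits, had 55.7, 56.5 and 63.2 CPM in WT with DMSO and 79.1, 75.7 and 80.6 with CMA. DMSO libraries of STINGgt/gt held 51.8, 53.1 and 55.2 CPM and CMA libraries 55, 58.3 and 56.5, with overlap. The WT libraries with CMA stood above all others. The increase was 1.34-fold in WT (log2 0.42 ± 0.0516 SE, adjusted p = 1.7e-06, edgeR). The log2 value in STINGgt/gt was 0.08, with a 95% interval of -0.03 to 0.20.

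Ikbke (ENSMUSG00000042349, chromosome 1, 131254343 to 131279606), which encodes the inducible relative IKKε, had 70.5, 77.1 and 52.8 CPM in WT with DMSO and 238, 227 and 238 with CMA. STINGgt/gt libraries held 107, 117 and 117 CPM under DMSO and 116, 118 and 113 under CMA. Here the lowest group was WT with DMSO, all 3 libraries of which lay below every STINGgt/gt library, and WT with CMA was the highest. The increase with CMA in WT was 3.52-fold (log2 1.81 ± 0.0935 SE, adjusted p = 3.68e-11, edgeR), and in STINGgt/gt the log2 value was 0.03 with a 95% interval of -0.16 to 0.22. Leaving out the WT DMSO library at 52.8 CPM gave a log2 value of 1.67 in WT. The antisense transcripts Gm28914 and Gm28913 lie over 1.8% and 0.7% of the exon bases of Ikbke and were not analysed here.

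The balance of the kinases was also read within each library, as the ratio of Ikbke counts to Tbk1 counts, which does not depend on the scaling between libraries. This ratio was 1.27, 1.37 and 0.835 in WT with DMSO and 3, 3 and 2.95 in WT with CMA. In STINGgt/gt it was 2.06, 2.2 and 2.11 with DMSO and 2.12, 2.03 and 2 with CMA. The STINGgt/gt groups overlapped and lay between the 2 WT groups. The ratios are given as a description, with no test. The ratio of Tmem173 to Irf3 counts, the adaptor against the factor at the end of the cascade, had means of 3.05 ± 0.253 and 5.95 ± 0.576 (SD, n = 3) in WT with DMSO and CMA. In STINGgt/gt these means were 2.48 ± 0.188 and 2.58 ± 0.116.

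**Figure D2:**
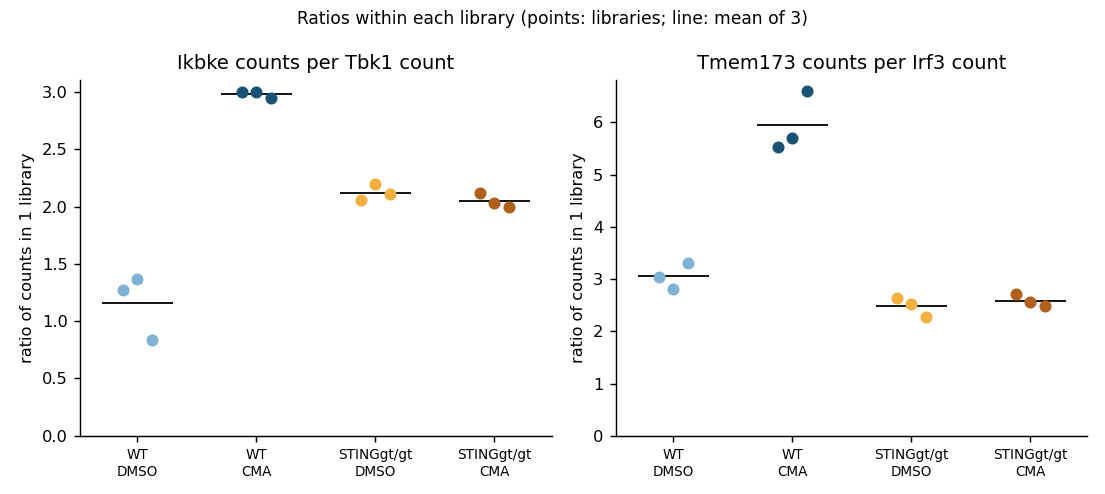
Ratio of Ikbke to Tbk1 counts and of Tmem173 to Irf3 counts within each library (vertical axes, no unit) in the 4 groups, with a point per library and a line at the mean of 3. In the left panel both STINGgt/gt groups lie between the WT groups, near 2, and in the right panel WT with CMA lies above the rest.

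Irf3 (ENSMUSG00000003184, chromosome 7, 44997648 to 45002848), which encodes the transcription factor that TBK1 phosphorylates, was the member that fell. Its values in WT were 60.6, 67.9 and 55.4 CPM with DMSO and 53.6, 53.2 and 47.8 with CMA. The STINGgt/gt values were 68.8, 67.4 and 73.9 CPM under DMSO and 67.8, 66 and 70.5 under CMA. The WT treatments came close, with 55.4 CPM as the lowest DMSO and 53.6 as the highest CMA value. With CMA, Irf3 fell by log2 0.25 in WT (SE 0.0675, 95% interval -0.39 to -0.10, adjusted p = 0.00373, edgeR). The log2 value in STINGgt/gt was -0.04, with a 95% interval of -0.18 to 0.10. Bcl2l12, on the opposite strand, covers 2.6% of the exon bases of Irf3 and had a log2 value of -0.05 in WT, which did not pass the test (adjusted p = 0.547, edgeR).

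Samhd1 (ENSMUSG00000027639, chromosome 2, 157097533 to 157135265), which hydrolyses the deoxynucleotides from which DNA is made, had the highest level per exon length. It had 791, 844 and 877 CPM in WT with DMSO and 2340, 2290 and 2380 with CMA. The STINGgt/gt libraries held 706, 690 and 740 CPM under DMSO and 744, 809 and 787 under CMA. The WT libraries with CMA were far above all others, and the STINGgt/gt treatments did not overlap either. The increase in WT was 2.79-fold (log2 1.48 ± 0.0481 SE, adjusted p = 1.1e-13, edgeR). The log2 value in STINGgt/gt was 0.13, with a 95% interval of 0.03 to 0.23, an unadjusted p of 0.0131 and an adjusted p of 0.224 (edgeR), so that it did not pass the test over all genes.

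Trex1 (ENSMUSG00000049734, chromosome 9, 109057933 to 109059734), the exonuclease that clears DNA from the cytosol, was listed at 0 counts in all 12 libraries. All 1147 of its exon bases, or 100%, also lie in exons of Atrip on the same strand in the GENCODE M21 annotation. By default HTSeq assigns no read that falls on more than 1 gene, and 0.594% to 0.635% of entries per library were set aside as ambiguous. The count of Trex1 is therefore no measure of its expression, and no limit is drawn from it. Atrip, whose product takes part in the response to DNA damage, had means of 17.9 and 15.5 CPM in WT with DMSO and CMA and of 20.3 and 20 in STINGgt/gt. It fell by 0.21 (log2) in WT (adjusted p = 0.00483, edgeR).

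**Figure D3:**
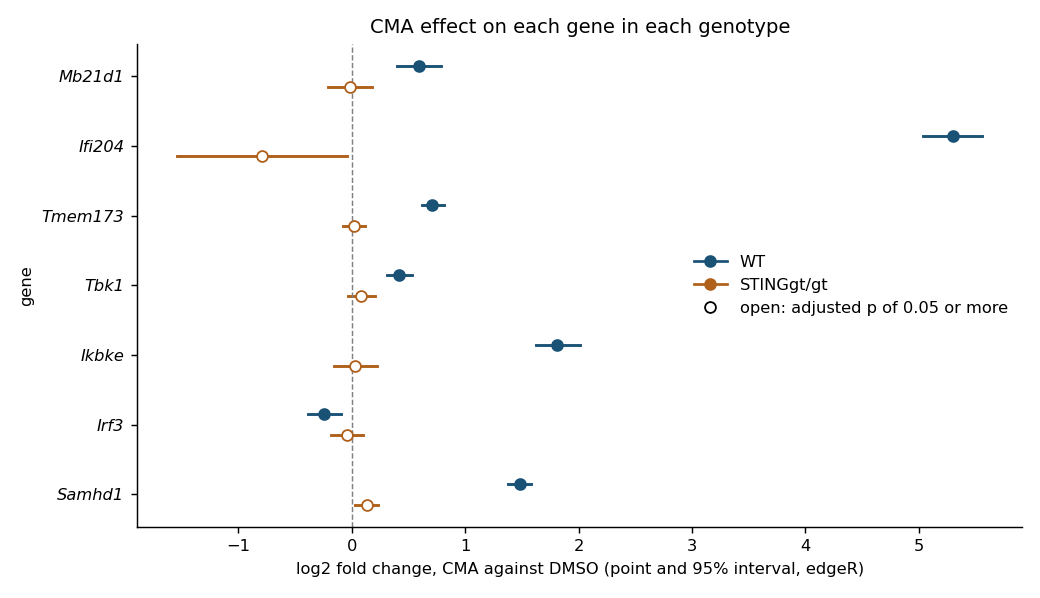
Log2 fold change of CMA against DMSO for each member (horizontal axis) in WT and STINGgt/gt, with 95% intervals from edgeR and open points where the adjusted p was 0.05 or more. The WT values run from -0.25 for Irf3 to 5.30 for Ifi204, and all points of STINGgt/gt are open.

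The difference between the CMA effects of the genotypes was tested itself, as an interaction in the same model. It was past the threshold and positive for 6 of the 7 members, against 58.8% of all genes past it, 27.2% with a higher and 31.6% with a lower effect in WT. The log2 difference was 6.09 for Ifi204 (adjusted p = 3.91e-09), 1.78 for Ikbke (6.41e-09) and 1.35 for Samhd1 (7.04e-11, edgeR). For the adaptor Tmem173 it was 0.69 (adjusted p = 1.35e-07), for Mb21d1 0.61 (0.000708) and for Tbk1 0.34 (0.00086, edgeR). For Irf3 it was -0.21 with a 95% interval of -0.41 to -0.01 and an adjusted p of 0.0689 in edgeR, which did not pass. It passed without the third WT DMSO library (log2 -0.27, adjusted p = 0.00737, edgeR), with the replicate number as a block (log2 -0.21, adjusted p = 0.011) and with no filter on low counts (log2 -0.20, adjusted p = 0.0435). Without these changes no member was called lower here, with 1 at an unadjusted p under 0.05 and 6 members called in all by edgeR, DESeq2 and limma-voom alike.

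Without the agonist the genotypes also differed. This comparison shares its WT DMSO libraries with the CMA effect in WT. With DMSO, 3 of the 7 members were higher in WT than in STINGgt/gt and 2 were lower, against 22.9% and 19.8% of all genes, 42.7% together. Ikbke was lower in WT, with a log2 value of -0.77 (SE 0.0928, adjusted p = 5.44e-06, edgeR), that is, 1.70-fold higher in STINGgt/gt, and with a value of -0.62 without the WT library at 52.8 CPM. Ifi204 was 2.71-fold higher in WT (log2 1.44 ± 0.259 SE, adjusted p = 0.000294, edgeR). Samhd1 was 1.18-fold higher (log2 0.23 ± 0.0473 SE, adjusted p = 0.000776, edgeR). For these 3 genes the genotypes did not overlap, and the share of all genes without overlap was not counted here either. The B cell and myeloid markers were higher in WT with DMSO as well, with median log2 values of 1.05 and 1.80, and so were 4 of 6 CD8 T and NK cell markers, with 1 lower and a median of 0.73 over the 6. Their part in the differences of Ifi204, Ikbke and Samhd1 was not tested.

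The remaining differences with DMSO were small. Tbk1 had a log2 value of 0.13 (adjusted p = 0.0498, edgeR), a call that was lost in 17 of the 20 alternative fits. Irf3 had a log2 value of -0.19 (adjusted p = 0.0271, edgeR), with overlapping libraries, and lost its call in 4 of 20, among them the fits without the first or the third WT DMSO library or the third STINGgt/gt DMSO library. The overlapping Bcl2l12 was lower in WT as well (log2 -0.24, adjusted p = 0.0126, edgeR). Tmem173 had a log2 value of 0.10 with a 95% interval of 0.01 to 0.20 and did not pass (adjusted p = 0.0827, edgeR). Without the first STINGgt/gt DMSO library its adjusted p was 0.0475, with a log2 value of 0.13. Mb21d1 had a log2 value of -0.03 (adjusted p = 0.833, edgeR), which became -0.20 with an adjusted p of 0.0313 without the third WT DMSO library.

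With CMA the genotypes were further apart. All 7 members passed the test between WT and STINGgt/gt with CMA, 6 higher in WT and Irf3 lower, against 37% and 36.5% of all genes, 73.5% together. Ifi204 differed by 7.53 on the log2 scale, Samhd1 by 1.58, Ikbke by 1.01, Tmem173 by 0.80, Mb21d1 by 0.58 and Tbk1 by 0.47. For Irf3 the log2 value was -0.40. All 6 B cell markers and 5 of 7 myeloid markers were higher in WT here too, with median log2 values of 1.55 and 1.10, and their part in these differences was not tested. Ikbke changed its order, as it was below STINGgt/gt with DMSO and 2.02-fold above it with CMA (adjusted p = 2.82e-08, edgeR).

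Divided by exon length, taken as all bases in any annotated exon of the gene, the members covered a wide range of levels. This length was 9150 bases for Samhd1, 9018 for Ikbke and 3910 for Tbk1, and the order of the genes depends on it. Without length, Ikbke counts per Tbk1 count had means of 1.16 and 2.98 in WT with DMSO and CMA and of 2.12 and 2.05 in STINGgt/gt. In WT with DMSO, Samhd1 had 91.5 and Tmem173 67.8 CPM per kilobase, above 97% and 95.2% of the genes tested. Irf3 at 17.8, Tbk1 at 15 and Ikbke at 7.41 CPM per kilobase followed. The sensors were lowest, Mb21d1 at 3.23 and Ifi204 at 0.291 CPM per kilobase. With CMA in WT, Ikbke followed Samhd1 at 255 and Tmem173 at 111 with 26 CPM per kilobase, above Tbk1 at 20.1 and Irf3 at 15. Ifi204 reached 11.8 CPM per kilobase, above Mb21d1 at 4.92. In both STINGgt/gt groups the order was that of WT with DMSO, with Ikbke at 12.6 and 12.9 CPM per kilobase just below Tbk1 at 13.7 and 14.5.

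**Figure D4:**
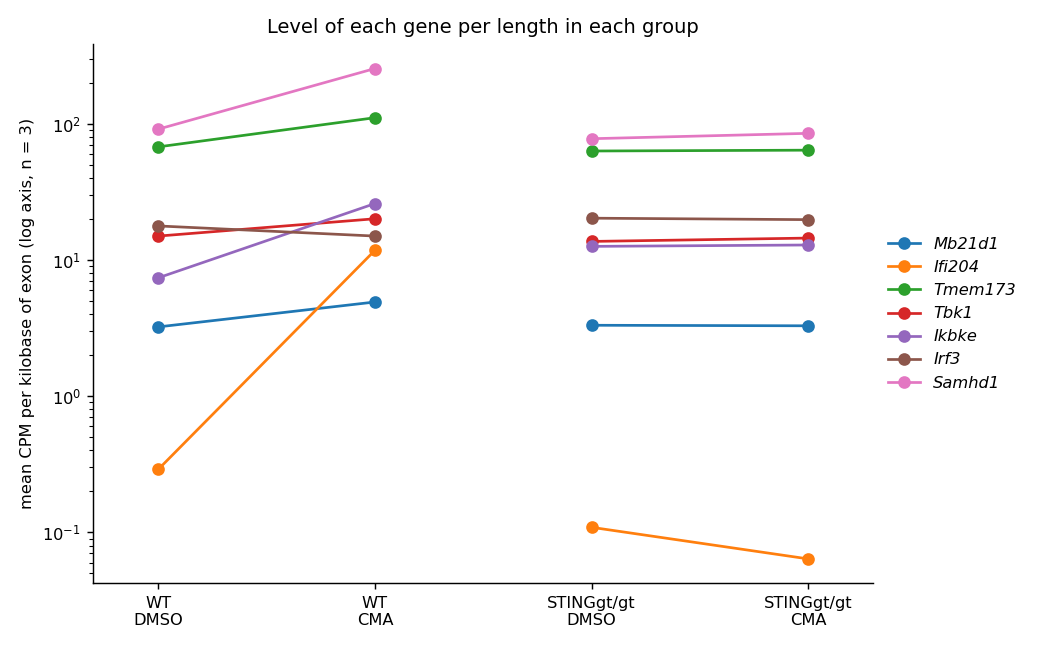
Mean CPM per kilobase of exon (logarithmic vertical axis, n = 3) of each member in the 4 groups, with lines joining DMSO and CMA within a genotype. Ifi204 rises from 0.291 to 11.8 and Ikbke crosses Tbk1 and Irf3 in WT, whereas no lines cross in STINGgt/gt. Where lines cross depends on the length used, all bases in any annotated exon.

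The genes most like each member were read from the Pearson correlation of log2 CPM across the 12 libraries, among 11198 genes with a mean count of at least 50. As these libraries fall into 4 groups, which set most of the variation, the values are descriptions only. Samhd1 was most like Stat4 (r = 0.9977), which encodes a transcription factor of cytokine signalling, and the antiviral gene Rsad2 (0.9974). Ifi204 was most like Npc2 (0.9959), and the third closest was Ddx58 (0.9952), which encodes the RNA sensor RIG-I. Genes close to Tmem173 included Zfyve1 (0.9954) and Cd52 (0.995). For Ikbke the closest genes included Grap (0.995) and Psmb9 (0.9932), which encodes a subunit of the immunoproteasome. The closest genes were Efcab14 (0.9868) for Mb21d1, Fam76a (0.9907) for Tbk1 and Tmem11 (0.9814) for Irf3. Between 41 genes, for Irf3, and 932 genes, for Samhd1, exceeded 0.95 with a member.

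In the RefSeq promoters (250 bases before to 50 after the start), 6 of the 8 members had an entry. The core of the interferon response element, a pair of GAAA blocks with 2 bases of any kind between them on either strand, was found in 0 of these 6, against 3.44% of 32851 promoters. Its longer form with 3 such blocks, each match of which also holds the core, was likewise found in 0, against 0.12%. A STAT element, TTCNNNGAA on either strand, stood in 1 of the 6, in Samhd1, as TTCGGAGAA with its first base 235 bases before the start, against 8.3% of all promoters. Irf3 and Trex1 also had an entry but are not shown above.

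Around the members, 97 further genes in 9 lists of the pathway were read, of which 93 were tested. The lists were chosen with earlier results of these data known, so their counts beside the shares of all genes are descriptions only. Ifi202b, Dnase1, Trex2 and Slc46a2 were listed at 0 in all libraries. A gene low elsewhere could pass the filter through its WT CMA libraries alone. In WT, CMA moved 50 of the 93 up and 21 down, against 33% and 37.4% of all genes tested. In STINGgt/gt 2 passed the test in edgeR, against 1.32% of all genes, 4 in DESeq2 and 1 in limma-voom, with 11 at an unadjusted p under 0.05.

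Of the other PYHIN genes, the family of Ifi204, all 8 tested rose with CMA in WT, with a median log2 value of 2.56, where 33% of all genes were higher, and 6 to 8 were called over the alternatives. BC094916 went from 0.182 to 0.369 CPM with DMSO to 19.7 to 22.2 with CMA, a 66.6-fold rise, and AI607873 rose 18.1-fold and Pyhin1 8.95-fold (adjusted p = 2.36e-15, 6.66e-15 and 9.4e-14, edgeR). In STINGgt/gt 0 of the 8 passed in edgeR, with 2 at an unadjusted p under 0.05, 1 called by DESeq2 and 0 by limma-voom. With DMSO, 4 of the 8 were higher and 2 lower in WT than in STINGgt/gt, against 22.9% and 19.8% of all genes, so that the share of lower genes was near that of all genes. Over the alternatives 2 to 4 were higher. Mnda lost its call in 13 of 20 and Ifi205 was tested in only 19 of 20, both named after their values were seen. The lower ones, named after their values were seen, were Mndal (mean 21.1 CPM in WT and 70.8 in STINGgt/gt, log2 -1.74, adjusted p = 1.98e-11, edgeR) and Ifi203 (18.4 and 58.2 CPM, log2 -1.65, adjusted p = 3.86e-10, edgeR). These stood opposite to Ifi204, which was higher in WT with DMSO.

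Among 13 other proteins proposed to sense DNA, 3 were higher and 6 lower with CMA in WT, which is not far from the 33% and 37.4% of all genes. Tlr9, the endosomal DNA receptor, went from a mean of 2.6 to 12.7 CPM (4.84-fold), and Zbp1, a sensor of Z-form nucleic acid, from 119 to 493 CPM (4.13-fold). Tlr9 is also expressed by B cells, whose markers rose in WT with CMA in 4 of 6 cases, with a median log2 value of 0.38, and their part in it was not tested. Xrcc6, which encodes the Ku70 subunit of the DNA end-binding complex, fell by log2 1.04 (adjusted p = 3.21e-11, edgeR). In STINGgt/gt 0 of the 13 passed in edgeR, DESeq2 or limma-voom, against 1.32% of all genes in edgeR. There 0 of the 13 had an unadjusted p under 0.05.

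The nucleases and RNA editing enzymes that act on self nucleic acid, the functional class of Trex1, had 6 members higher and 2 lower of 8 with CMA in WT, against 33% and 37.4% of all genes. Over the alternatives 4 to 6 were higher and 1 to 2 lower, and the lower call of Rnaseh2c, named after its values were seen, was lost in 12 of 20. Dnase1l3, a secreted DNase, rose 8.09-fold, Adar, an RNA-editing enzyme, 2.74-fold and Pld4, a lysosomal exonuclease, 1.40-fold (adjusted p = 8.68e-11, 3.34e-14 and 0.0099, edgeR). Enzymes of deoxynucleotide supply, the counterpart of Samhd1, had 1 of 10 higher and 5 lower in WT, the latter not far from the 37.4% of all genes. Dctpp1 fell by 1.07, Dut by 1.00 and Tk1 by 0.41 (log2, adjusted p = 2.94e-10, 5.25e-11 and 1.24e-06, edgeR). In STINGgt/gt 0 genes of both lists passed in edgeR, DESeq2 or limma-voom, against 1.32% of all genes in edgeR. There 1 nuclease gene had an unadjusted p under 0.05.

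Partners of TBK1 and IKKε had 8 of 11 higher in WT in edgeR and 0 lower, with 1 lower at an unadjusted p under 0.05 and 8 called in all by DESeq2 and limma-voom as well, where 33% of all genes were higher and 37.4% lower. Optn, an autophagy receptor that binds TBK1, rose 2.31-fold, Tbkbp1 1.57-fold and Ikbkg, the NEMO subunit of the NF-κB kinase complex, 1.22-fold. Of 19 genes for the traffic, ubiquitination and turnover of STING, 7 were higher, close to the 33% of all genes, and 4 lower, against 37.4%. In this list the ubiquitin ligase Trim56 rose 3.73-fold, the autophagy kinase Ulk1 1.89-fold and the deubiquitinase Usp20 1.62-fold. In STINGgt/gt, where 1.32% of all genes passed in edgeR, 0 of the 11 partners passed in edgeR, DESeq2 or limma-voom. Of these partners 1 had an unadjusted p under 0.05. Of the 19 genes 0 passed in edgeR and limma-voom and 1 in DESeq2, with 4 at an unadjusted p under 0.05.

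Of 9 genes for the transport and hydrolysis of cGAMP, 3 were higher and 4 lower with CMA in WT, shares close to the 33% and 37.4% of all genes. P2rx7, an ATP-gated channel, went from 17.9 to 21.4 CPM with DMSO to 2.87 to 3.75 with CMA and fell by 2.58 (log2, adjusted p = 7.52e-13, edgeR). Enpp1, which hydrolyses cGAMP, fell by 1.38 (adjusted p = 1.09e-10, edgeR) and the importer Slc19a1 by 1.35 (2.76e-13, edgeR). In STINGgt/gt, where 1.32% of all genes were called, Enpp1 was the only gene of this list called. It fell there by 0.34 (adjusted p = 0.0478, edgeR), a call that was lost in 10 of 20 alternative fits.

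Further along the cascade, 6 of 7 transcription factors and coactivators beside Irf3 were higher with CMA in WT in edgeR, against 33% of all genes, with 0 lower at an unadjusted p under 0.05. Irf7, the interferon-inducible relative of Irf3, went from 6.74 to 11.2 CPM with DMSO to 459 to 482 with CMA, a 51.5-fold rise (adjusted p = 5.59e-15, edgeR). Nfkb2 rose 3.41-fold and the coactivator Crebbp 1.55-fold. In STINGgt/gt 0 of the 7 passed in edgeR, DESeq2 or limma-voom, against 1.32% of all genes in edgeR. There 0 of the 7 had an unadjusted p under 0.05. Of 8 genes transcribed on IRF3 activation, 8 were called higher in WT and 6 to 8 over the alternatives, against the same 33%. The chemokine Ccl5 rose 178-fold, Rsad2 165-fold and Ifit3 149-fold. Ifnb1, which encodes interferon-β and is named after its values were seen, had 58, 55 and 34 counts in WT with CMA and at most 1 in every other library. It thus passed the filter only through the group where it was high, and its call says nothing more. That call is included in the 8 here and in the 50 called higher over all lists. In STINGgt/gt 1 of these 8 passed the test, against 1.32% of all genes. This was Cxcl10, named after its values were seen, with means of 7.21 CPM with DMSO and 9.68 with CMA. Its log2 value was 0.43 (adjusted p = 0.00853, edgeR), a call lost in 3 of 20 alternative fits.

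**Figure D5:**
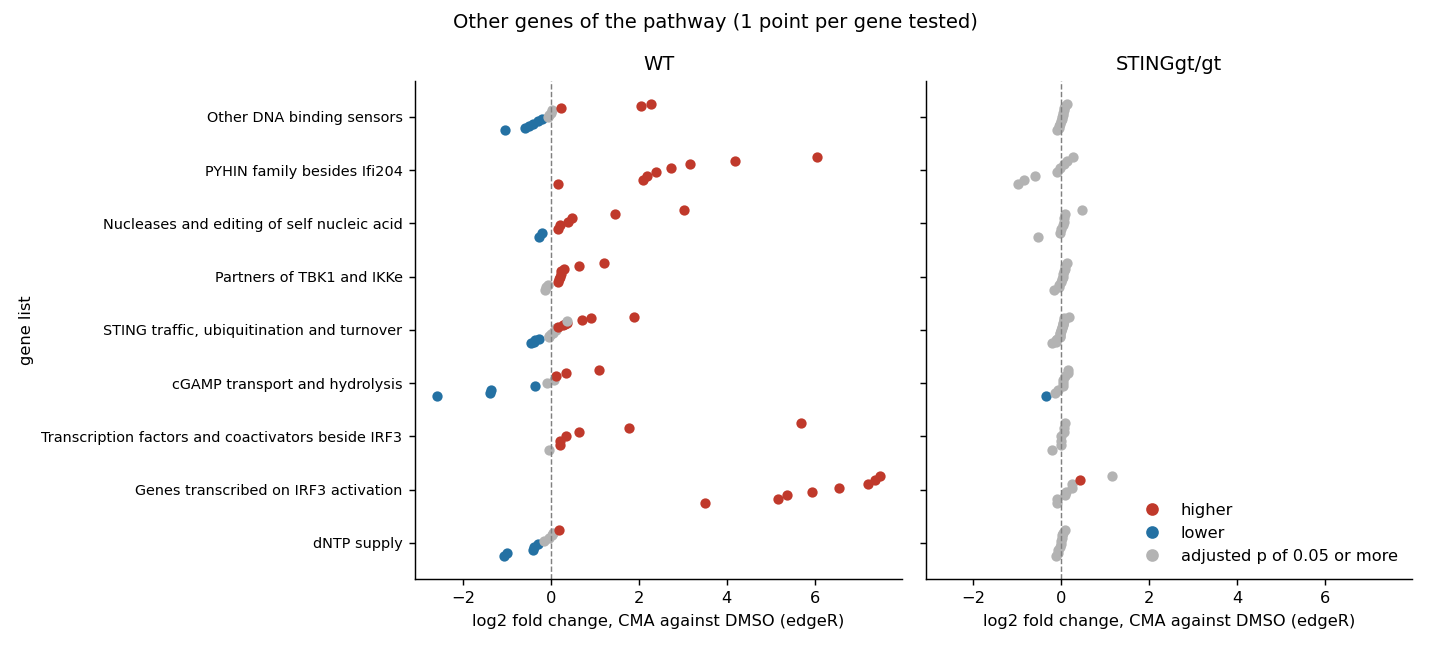
Log2 fold change of CMA against DMSO (horizontal axis) for the 93 further genes tested, 1 point per gene, in rows by list, in WT (left) and STINGgt/gt (right). Red points were higher and blue points lower at the threshold. In WT all 8 further PYHIN genes and all 8 genes transcribed on IRF3 activation are red, and in STINGgt/gt 2 points of the 93 are coloured. Among the red points is Ifnb1, which passed the filter only through its WT libraries with CMA.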

How the data were processed

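RNA from 12 cultures of CD4+ T cells was made into libraries with a stranded poly(A) kit and sequenced. The authors deposited raw HTSeq counts of reads per Ensembl gene, and a log2 expression table of 11921 genes that holds filtered and scaled values. The submitters' processing notes name cutadapt 1.3, STAR 2.4.0f1, HTSeq 0.6.1, RSEM 1.2.16 and GRCm38. The strand setting and the annotation release are not given in the sources used here. Positions and overlaps are from GENCODE M21, promoters from RefSeq (GRCm38.p6).

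The main test was edgeR 4.0.16 (R 4.3.3) on the counts, with TMM scaling, filterByExpr (13811 genes kept) and the 4 groups in 1 quasi-likelihood model. Lines that name no gene were left out of library sizes: non-unique alignments were 27.77% to 30.28% of entries and reads outside genes 4.86% to 7.16%. At these depths counting error is small for all members except Ifi204. Alternatives were DESeq2 1.42.0, limma-voom, limma 3.58.1 on the log2 table, other scaling, filters and thresholds, a replicate block and the removal of each library.

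The members and lists were chosen with earlier results of these data known. Named were the members, genes overlapping them, the 3 genes most correlated with each and, per list, at most 3 called genes with the largest change in WT. Genes outside this rule are marked as such, and a gene within it is not reported here.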

Additional observations from a re-analysis of the deposited data

Results flagged for a closer look

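For 6 of the 7 members tested the effect of CMA differed between the genotypes by a test of the difference itself, the interaction of treatment and genotype in edgeR, which 58.8% of all genes passed, 27.2% with a higher effect in WT. The WT effect exceeded that of STINGgt/gt by log2 6.09 for Ifi204 (adjusted p = 3.91e-09), 1.78 for Ikbke (6.41e-09) and 1.35 for Samhd1 (7.04e-11). It exceeded it by log2 0.69 for Tmem173 (adjusted p = 1.35e-07, edgeR), 0.61 for Mb21d1 (0.000708) and 0.34 for Tbk1 (0.00086). In all 6 genes each WT library with CMA lay above every other library, which was not counted over all genes. Both genotypes were compared with their own DMSO libraries, and those differed in Ifi204, Ikbke and Samhd1 as described, whereas the call of Tbk1 was lost in 17 of 20 alternative fits.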

How the results depend on the processing

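The calls of the 7 members with CMA in WT (6 higher, 1 lower), with CMA in STINGgt/gt (0) and between the genotypes with CMA (6 higher, 1 lower) kept their counts in all alternatives that tested all 7, including the 12 fits that each left out 1 library. With at least 10 counts in every library Ifi204 was not tested, and 5 were higher with CMA in WT, in the interaction and between the genotypes with CMA. Of the interaction, 6 members were called higher in every fit that tested all 7 and 0 to 1 lower when a library was left out. The 1 was Irf3, called without WT DMSO replicate 3, and also with no filter (1 lower, adjusted p = 0.0435, edgeR). Between the genotypes with DMSO, 2 to 3 members were called higher and 1 to 2 lower when a library was left out. There 1 was called higher with at least 10 counts in every library, and 1 lower with only the 2 groups in the fit or with an adjusted p under 0.01. Removal of 1 library turned the sign of small log2 values: Tmem173 with CMA in STINGgt/gt ranged from -0.01 to 0.05, Mb21d1 from -0.04 to 0.01 and Ikbke from -0.01 to 0.05, and Mb21d1 between the genotypes with DMSO from -0.20 to 0.07. The cause was not tested. Of the 7 members tested, only Ifi204 had libraries with 20 counts or less.

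The deviations of same-numbered libraries from their group means correlated at 0.00195, 0.104 and 0.132 in WT and at 0.0634, 0.0597 and 0.0585 in STINGgt/gt, so the numbers were not taken as pairs. The sample names of same-numbered DMSO and CMA libraries share their first digit in 3 of 3 WT pairs and 2 of 3 STINGgt/gt pairs, and the labels do not say what it marks. With a replicate block, 1 member (Irf3, log2 -0.21, adjusted p = 0.011, edgeR) was called lower in the interaction, and the other counts of members called were those of the fit without it. The fit of only 2 groups was not run for the interaction.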
